A study of Rattus norvegicus with 6 samples.

Results

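The mitosis and cell division genes are a list of 45 genes whose products copy DNA, condense and segregate chromosomes or split the cell. The list was chosen by earlier results of the same contrast, in which *Aurkb* had been named among the genes that differ between rats with nerve injury and sham rats. A member was found where its symbol equalled that of a row of the table. This gave 44 of the 45 genes, among 22050 genes in all, and *Ccnb2* is not analysed here. All 44 passed the filter on low counts, which left 14426 genes for the fit. Since the contrast itself was used in choosing the genes, their differences between the groups are given as a description. Where members are counted among the calls of the fit over all genes, the count sets them beside the other genes and is no test of the list.

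Spinal cord tissue was sequenced in 3 sham and 3 SNI-NP libraries, each taken here as 1 rat. The labels number the replicates and do not say whether a library pooled several rats. Spared nerve injury (SNI) damages part of the sciatic nerve while its sural branch is left intact, and serves as a model of neuropathic pain (NP). The sham rats had surgery without the nerve injury, and the study used male Sprague-Dawley rats aged 8 to 10 weeks. No transgene, drug or virus was part of either group, and the spinal level and the time after surgery are not given in the sources used here. Levels are given in CPM, counts scaled to 1 common library size with TMM factors.

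A dividing cell first copies its DNA, with the MCM helicase opening the double helix and PCNA clamping the polymerase to it. Cyclins with CDK1 then drive the cell into mitosis, where kinetochores tie chromosomes to the spindle and a checkpoint holds back anaphase until all are attached. *Aurkb* encodes aurora kinase B, the enzyme of the chromosomal passenger complex, which corrects faulty attachments and takes part in splitting the cell. Neurons do not divide, while glial precursors, microglia and blood cell precursors can. In whole tissue, fewer cells of a type and less RNA per cell cannot be told apart.

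Many genes of mitosis share short promoter elements, which is why a few promoters are shown first. In resting cells the DREAM complex holds such genes down through the cell cycle homology region (CHR, searched here as TTTGAA), commonly beside CCAAT boxes (CCAAT), and E2F sites are known from genes of DNA replication. The E2F-like letters searched were TTTGGCGC, TTTGCCGC, TTTCGCGC and TTTCCCGC. Each was searched on both strands in the 300 bases from 250 before to 50 after the start of the gene, in RefSeq's promoters of the build GRCr8, and matches may overlap. Promoters were given for 36 of the 44 genes (*Aurkb*, *Ccna2*, *Tpx2*, *Ube2c*, *Rrm2*, *Foxm1*, *Pbk* and *Racgap1* had none in the table). Shown are the 150 bases before the start of *Cdk1*, *Cdc20*, *Mcm2*, *Mki67* and *Cenpf*, read 5′ to 3′ on the gene's own strand, with every match in capitals (a match on the other strand appears as its reverse complement). *Cdk1* and *Cdc20* are short genes, *Mki67* and *Cenpf* the longest of the set, and *Mcm2* a gene of DNA replication.
Cdk1: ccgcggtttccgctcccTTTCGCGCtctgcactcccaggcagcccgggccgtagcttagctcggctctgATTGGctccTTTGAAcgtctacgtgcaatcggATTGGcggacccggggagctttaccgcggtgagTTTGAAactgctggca
Cdc20: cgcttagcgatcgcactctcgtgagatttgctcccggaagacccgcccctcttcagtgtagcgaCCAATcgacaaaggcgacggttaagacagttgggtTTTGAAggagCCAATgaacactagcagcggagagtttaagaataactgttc
Mcm2: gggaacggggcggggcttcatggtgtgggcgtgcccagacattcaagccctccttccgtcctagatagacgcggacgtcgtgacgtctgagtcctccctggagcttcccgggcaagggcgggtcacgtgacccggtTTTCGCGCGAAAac
Mki67: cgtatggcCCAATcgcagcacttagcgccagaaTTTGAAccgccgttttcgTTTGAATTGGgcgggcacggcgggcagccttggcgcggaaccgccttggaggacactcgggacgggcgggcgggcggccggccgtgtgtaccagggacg
Cenpf: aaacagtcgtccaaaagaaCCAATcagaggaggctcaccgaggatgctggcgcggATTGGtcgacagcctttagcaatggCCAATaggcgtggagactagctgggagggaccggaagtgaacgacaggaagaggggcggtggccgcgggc

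These stretches lie at chr20:19265143-19265292 (plus strand) for *Cdk1*, chr5:137255800-137255949 (minus strand) for *Cdc20*, chr4:122918095-122918244 (minus strand) for *Mcm2*, chr1:199952594-199952743 (minus strand) for *Mki67* and chr13:103760887-103761036 (minus strand) for *Cenpf*. The promoter of *Cdk1* held all 3 kinds of element, with a CHR ending 11 bases before the start. In *Mcm2* the E2F-like match was palindromic and was counted on each strand, at overlapping positions. In *Mki67* a CHR and a reverse CCAAT box shared 1 base. The *Cenpf* stretch showed CCAAT boxes alone, and its CHR lay 3 bases after the start. Over the 36 promoters, a CHR was found in 23 (63.9%), against 19.4% of all 27457 promoters. A CCAAT box stood in 26 (72.2%), against 39.6%, and both elements stood together in 17 (47.2%), against 7.96%. E2F-like letters were found in 5 (13.9%, *Cdk1*, *Mcm2*, *Mcm3*, *Mcm5* and *Mcm6*), against 2.37%. A match is a description of letters and does not show that a factor binds. Genes with both elements included *Cdk1* and *Plk1*, which were higher in the SNI-NP rats, and *Mki67*, *Cenpf* and *Hmmr*, which had negative log2 fold changes.

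Depth ran from 16670760 to 18151156 estimated counts per library, so that a count of 0 allowed up to 0.165 to 0.18 CPM (3 counts, counting error only). Libraries differed in the makeup of their RNA, SNI-NP rat 1 and SNI-NP rat 3 among them. The 8 tested markers of dorsal root ganglion neurons summed to 77.2 CPM in SNI-NP rat 1, against 368 to 856 CPM in the sham rats and 1161 and 844 CPM in SNI-NP rats 2 and 3. Skeletal muscle genes (6 tested) summed to 469 CPM in SNI-NP rat 3 and 184 CPM in SNI-NP rat 1, against 23.8 to 84.9 CPM in the sham rats and 22.3 CPM in SNI-NP rat 2. As for the labelled tissue, oligodendrocyte genes summed to 30040 to 40884 CPM over the 6 libraries. Genes of Schwann cells, the myelinating cells of peripheral nerve, summed to 75639 CPM or more, above the oligodendrocyte sum in every library. Neuron genes summed to 808, 395 and 686 CPM in sham and to 479, 432 and 406 CPM in SNI-NP. The dorsal root ganglion markers exceeded them in every library but sham rat 1 and SNI-NP rat 1. Each sum adds CPM over genes of different number and length, so ranking 1 list above another does not compare amounts of tissue. How much of the RNA came from peripheral nerve or ganglion was not tested. The set was highest in SNI-NP rat 1, and its counts and medians are also given without that rat.

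Per length, the division genes were low in this tissue. Levels of different genes are compared in FPKM, a count divided by gene length and by library depth. The mean FPKM of the 44 genes over the 6 libraries had a median of 1.73, and 82.8% of all tested genes lay above this median. Only 5 of the 44 had a mean above 4 FPKM, namely *Pcna*, the polymerase clamp (29.2 FPKM), *Mcm2* (6.85 FPKM), *Racgap1* (4.83 FPKM), *Mcm6* (4.62 FPKM) and *Cdc20* (4.45 FPKM). At the other end, 18 of the 44 had a mean under 1 FPKM, and the lowest were *Cenpf* (0.102 FPKM), *Kif20b* (0.143 FPKM) and *Cenpe* (0.205 FPKM). *Aurkb* had a mean of 3.66 FPKM.

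The level of *Aurkb* was 3.90, 5.07 and 4.13 CPM in the 3 sham rats and 14.7, 15.4 and 7.01 CPM in the SNI-NP rats. The 3 SNI-NP values all exceeded the 3 sham values, with SNI-NP rats 1 and 2 close together and SNI-NP rat 3 between them and the sham rats. The means were 4.37 ± 0.619 CPM in sham and 12.4 ± 4.65 CPM in SNI-NP (SD, n = 3 each), and the fitted log2 fold change was 1.5 ± 0.32 (SE). Leaving out any 1 library or changing the scaling, filter or tool kept it between 1.31 and 1.75 on the log2 scale. No annotated gene overlaps *Aurkb* in GRCr8, and its counts were whole numbers in all 6 libraries.

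The other 43 genes followed *Aurkb* in SNI-NP rat 1 and not in SNI-NP rat 2. Summed over the 43 genes, the level was 200.2, 225 and 222 CPM in the sham rats and 344, 214 and 221 CPM in the SNI-NP rats. The sum was thus highest in SNI-NP rat 1, and SNI-NP rats 2 and 3 lay within the range of the sham rats. On the log2 scale, each gene was set against its own mean over the sham rats. The median of the 43 genes was 0.83 in SNI-NP rat 1, where 41 of the 43 lay above their sham mean and *Aurkb* lay 1.74 above it. In SNI-NP rat 2, where *Aurkb* was highest (1.80 above its sham mean), the median of the 43 was 0.09 and their quartiles ran from -0.73 to 0.31. In SNI-NP rat 3 the median was 0.10 with quartiles from -0.37 to 0.47, beside 0.68 for *Aurkb*. The sham rats themselves had medians of -0.27, 0.13 and 0.10, so the medians in SNI-NP rats 2 and 3 were inside the sham range. The median of all 14426 tested genes stayed between 0.00 and 0.02 in every library.

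**Figure D1:**
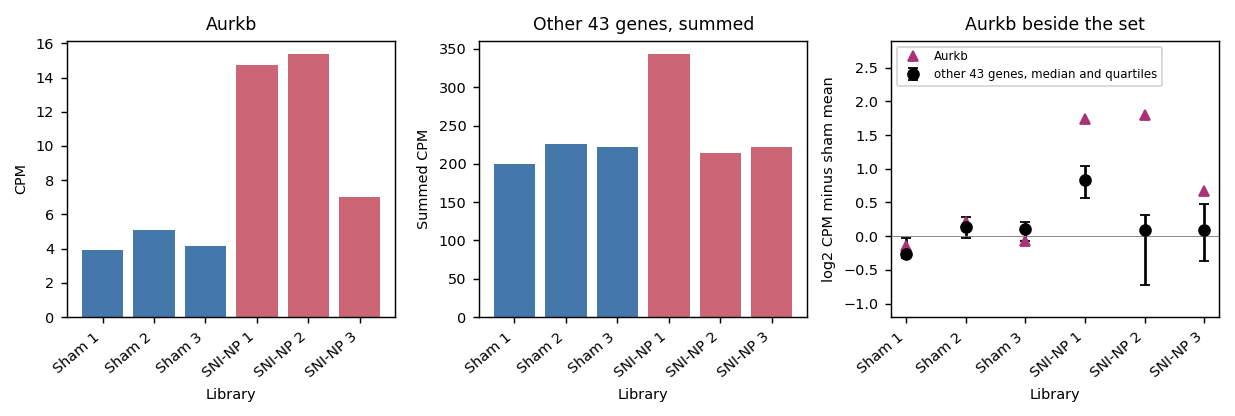
Level of *Aurkb* in CPM (left), summed CPM of the other 43 division genes (middle), and log2 CPM minus the sham mean (right) in each of the 6 libraries. In the right panel triangles are *Aurkb* and circles with bars the median and quartiles of the other 43 genes. *Aurkb* is high in SNI-NP rats 1 and 2, while the 43 genes are high in SNI-NP rat 1 alone.

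Counted by gene, 35 of the 44 (79.5%) had their highest level in SNI-NP rat 1, a library that was highest for 20.4% of all tested genes. *Aurkb* was the single member with its highest level in SNI-NP rat 2 (1 of 44, 2.27%), where 17.5% of all genes peaked. The remaining 8 peaked in sham rats: *Anln* in rat 1, *Bub1*, *Cenpf*, *Kif23*, *Ndc80* and *Prc1* in rat 2, and *Hmmr* and *Racgap1* in rat 3. The lowest level fell in sham rat 1 for 22 of the 44 and in SNI-NP rat 2 for 13 of the 44 (29.5%). These libraries were lowest for 17.6% and 20.1% of all genes. In SNI-NP rat 1, 15 of the 44 lay more than 1 above their sham mean on the log2 scale and 0 more than 1 below it. In SNI-NP rat 2 these counts were 1 (*Aurkb*) and 10, and in SNI-NP rat 3 they were 1 (*Plk1*) and 5. Over all tested genes the quartiles were -0.22 and 0.22 in SNI-NP rat 1, -0.25 and 0.21 in rat 2 and -0.22 and 0.20 in rat 3. The share of all genes past 1 was not counted, so nothing is read from these counts.

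**Figure D2:**
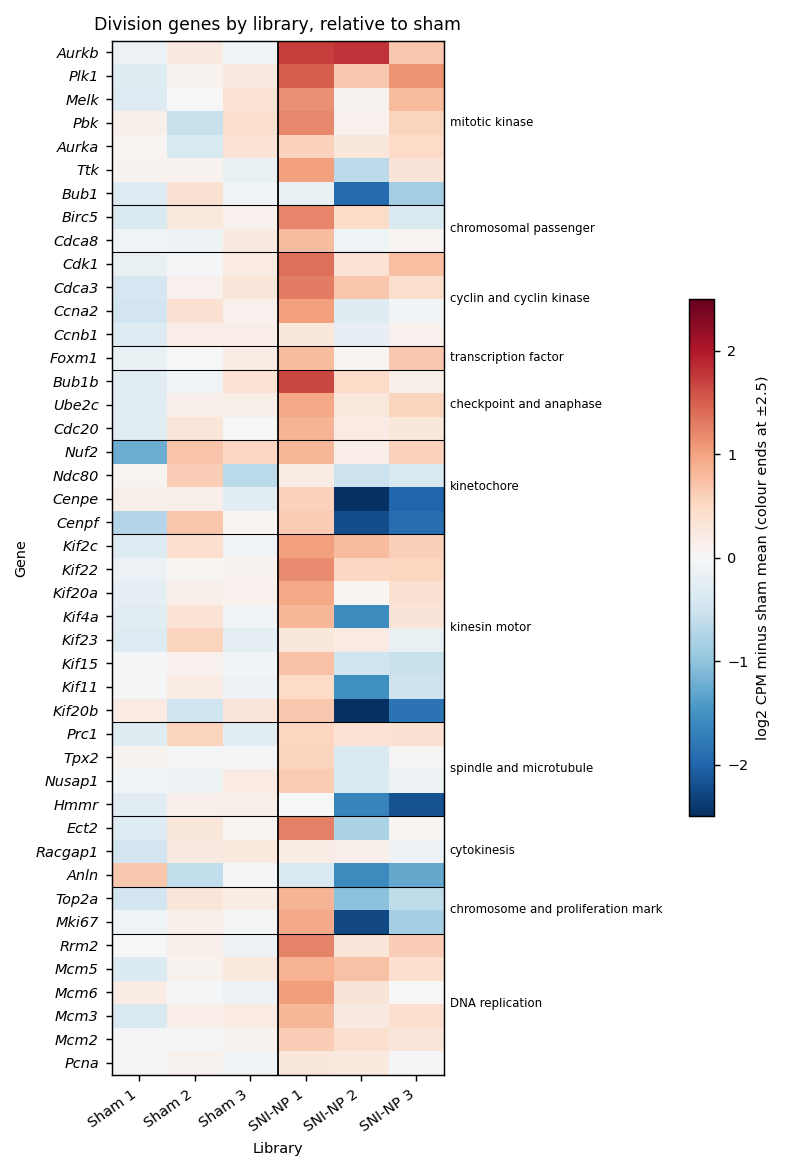
Log2 CPM minus the sham mean of each gene, for the 44 division genes (rows, grouped by role) in the 6 libraries (columns). Colours end at 2.5 in either direction, red above and blue below the sham mean. The column of SNI-NP rat 1 is red for 41 of the 43 genes beside *Aurkb*, and the dark blue cells lie in SNI-NP rats 2 and 3.

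Over both groups, 34 of the 44 genes had a positive log2 fold change and 10 a negative one, with a median of 0.40 (quartiles 0.03 and 0.64). Over all 14426 tested genes the median was 0.01 (quartiles -0.21 and 0.16) and 50.9% were positive. Past a fold change of 2 with an adjusted p-value under 0.05, edgeR's quasi-likelihood test called 0 of the 44 and 0% of all genes. With an unadjusted p-value under 0.05 it called 2 members higher (*Aurkb* and *Plk1*; 0.742% of all genes, 107) and 1 lower (*Anln*; 1.53% of all genes, 220). With DESeq2 the adjusted threshold was passed by 102 genes of the table, of which 1 was a member (*Aurkb*). Past a fold change of 2 lay 4 members, *Aurkb*, *Plk1* (log2 fold change 1.15), *Anln* (-1.10) and *Hmmr* (-1.04), of which *Hmmr* missed the unadjusted p-value. Just short of it were *Bub1b* (0.93), *Bub1* (-0.91) and *Cdk1* (0.91). The groups did not overlap for 11 of the 44 genes with SNI-NP higher (25%; 10.3% of all genes) and for 0 of the 44 with SNI-NP lower (8.14% of all genes). The 11 were *Aurkb*, *Plk1*, *Cdk1*, *Cdca3*, *Ube2c*, *Kif2c*, *Kif22*, *Rrm2*, *Mcm2*, *Mcm3* and *Mcm5*. Nothing is read from these shares, since the contrast chose the list.

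These values rested in large part on SNI-NP rat 1. Without it the median of the 44 was 0.10 and 23 of the 44 were positive. The call of *Plk1* was then lost and that of *Aurkb* remained (log2 fold change 1.36). Without it, 7 members were called lower, namely *Mki67*, *Bub1*, *Hmmr*, *Kif20b*, *Cenpe*, *Cenpf* and *Anln*, while the lower calls over all genes went from 220 to 702 (4.82% of 14577). Of the named members with positive values, *Kif2c* was then at 0.69, *Cdk1* at 0.58, *Kif22* at 0.53, *Rrm2* at 0.48, *Foxm1* at 0.40, *Bub1b* at 0.32, *Cdc20* at 0.23, *Pcna* at 0.11 and *Birc5* at 0.09. *Cdca8* (-0.03), *Racgap1* (-0.04), *Ccnb1* (-0.06) and *Tpx2* (-0.17) were slightly negative, and *Hmmr* was at -2.13 and *Anln* at -1.54. Without SNI-NP rat 2 the median was 0.54, the called genes were *Aurkb*, *Plk1*, *Cdk1* and *Melk*, and *Anln* was no longer called. The call of *Anln* was also lost without SNI-NP rat 3, and those of *Anln* and *Plk1* without sham rat 1, where the median of the 44 was 0.23.

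**Figure D3:**
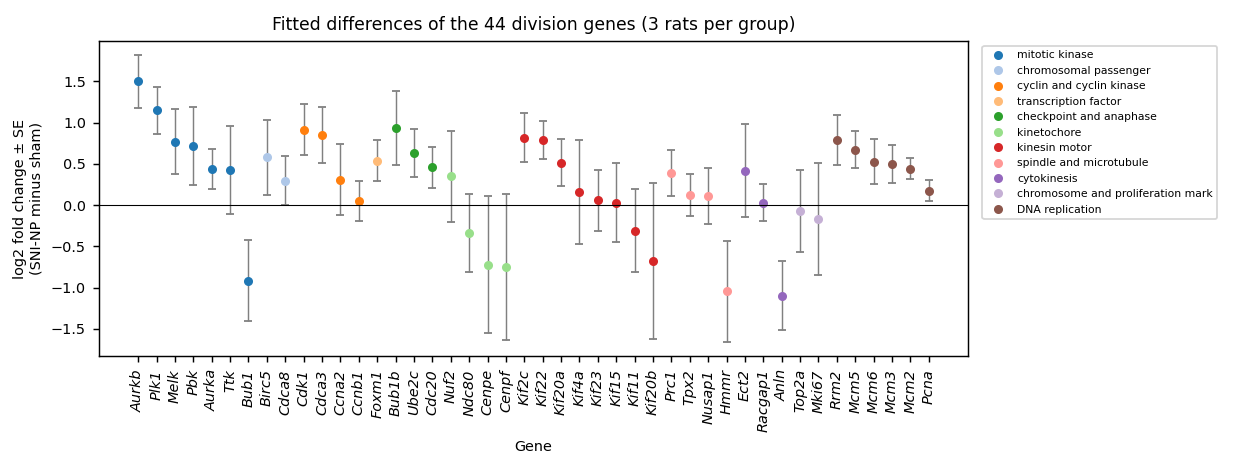
Fitted log2 fold change (SNI-NP minus sham, 3 rats per group) of each of the 44 division genes, with bars of 1 SE, coloured by role. The 6 genes of DNA replication are above 0 with SE between 0.12 and 0.30, whereas *Cenpe*, *Cenpf* and *Kif20b* are below 0 with wide bars that cross it.

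Mitotic kinases held the largest positive log2 fold changes of the set. Of 7, 6 had a positive log2 fold change, with a median of 0.72. *Plk1*, polo-like kinase 1, which acts in centrosome maturation and mitotic entry, was named after its values were seen. Its level was 1.98, 2.65 and 2.91 CPM in sham and 7.19, 4.05 and 5.51 CPM in SNI-NP, with no overlap between the groups (1.15 ± 0.29). In GRCr8 *Plk1* overlaps *Ern2*, and the use of strand in counting is not given in the sources used here. *Bub1*, a checkpoint kinase at the kinetochore, had the opposite sign, with 1.92, 3.21 and 2.33 CPM in sham and 2.13, 0.555 and 1.28 CPM in SNI-NP (-0.91 ± 0.49). SNI-NP rat 1 lay among the sham rats for *Bub1*, and the other two lay below all of them.

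Both partners of aurora kinase B on the list, subunits of the chromosomal passenger complex, were highest in SNI-NP rat 1. *Birc5*, which encodes survivin, had 1.26, 2.03 and 1.80 CPM in sham and 4.03, 2.33 and 1.28 CPM in SNI-NP (0.58 ± 0.45). *Cdca8*, borealin, had 3.72, 3.61 and 4.66 CPM in sham and 6.90, 3.67 and 4.17 CPM in SNI-NP (0.30 ± 0.29). In SNI-NP rat 2, where *Aurkb* was highest, *Birc5* was 0.45 above and *Cdca8* 0.11 below its sham mean (log2 -0.11). Over the 6 libraries, Pearson's correlation of log2 CPM with *Aurkb* was 0.723 for *Birc5* and 0.424 for *Cdca8*, as a description. *Incenp*, the scaffold of the complex, was not on the list of 45 and was looked at after the values of the other subunits were seen. Its level was 10.6, 12.7 and 15.7 CPM in sham and 11.3, 15.5 and 11.8 CPM in SNI-NP (-0.02 ± 0.20), with the groups overlapping.

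Cyclins and the cyclin kinase (*Ccna2*, *Ccnb1* and *Cdk1*) were positive in 3 of 3 (median 0.31), and *Cdca3*, which was grouped with them and is neither, had 0.85. *Cdk1*, the kinase that drives entry into mitosis, had 2.58, 2.87 and 3.43 CPM in sham and 7.88, 3.83 and 5.04 CPM in SNI-NP (0.91 ± 0.31), with every SNI-NP rat above the sham rats. *Ccnb1*, cyclin B1, its partner at that step, had 3.302, 4.68 and 4.66 CPM in sham and 5.06, 3.61 and 4.46 CPM in SNI-NP (0.05 ± 0.24). The groups overlapped for *Ccnb1*, and the sign of its log2 fold change turned without sham rat 1 and without SNI-NP rat 1. *Foxm1*, a transcription factor of genes of G2 and mitosis, had 4.38, 4.90 and 5.59 CPM in sham and 8.57, 5.11 and 7.94 CPM in SNI-NP (0.54 ± 0.25), SNI-NP rat 2 lying among the sham rats.

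Genes of the checkpoint and of anaphase were positive in 3 of 3 (median 0.63). *Cdc20*, which activates the anaphase-promoting complex, had 5.58, 8.45 and 6.81 CPM in sham and 12.4, 7.94 and 8.35 CPM in SNI-NP (0.46 ± 0.25). *Bub1b*, the checkpoint protein BUBR1, had 1.68, 1.97 and 2.68 CPM in sham and 6.84, 2.94 and 2.32 CPM in SNI-NP (0.93 ± 0.45). Both genes were well above the other 5 libraries in SNI-NP rat 1 alone.

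At the kinetochore, 3 of 4 genes were negative (median -0.53). *Cenpe*, a kinesin that moves chromosomes to the spindle's middle, was counted 36, 38 and 27 times in sham and 51, 4 and 7 times in SNI-NP (-0.72 ± 0.83). *Cenpf*, a large protein of the outer kinetochore, was counted 11, 35 and 21 times in sham and 33, 3 and 4 times in SNI-NP (-0.75 ± 0.88). SNI-NP rat 1 was above the sham rats for *Cenpe*, whereas SNI-NP rats 2 and 3 held only a few counts of either gene. Without SNI-NP rat 1 the log2 fold changes were -2.62 and -2.65.

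Kinesin motors were split, with 6 of 8 positive and a median of 0.11. *Kif22*, a motor that pushes chromosome arms from the poles, had 5.28, 6.03 and 6.23 CPM in sham and 13.4, 8.44 and 8.46 CPM in SNI-NP (0.79 ± 0.23). *Kif2c*, which takes microtubules apart at the kinetochore and is a substrate of aurora kinase B, had 1.56, 2.70 and 1.86 CPM in sham and 4.20, 3.55 and 3.07 CPM in SNI-NP (0.82 ± 0.30). Both were higher in every SNI-NP rat than in any sham rat. *Kif20b* was counted 18, 11 and 20 times in sham and 27, 1 and 3 times in SNI-NP, a profile like that of *Cenpe*.

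Of the spindle genes, 3 of 4 were positive (median 0.11). *Tpx2*, the activator of aurora kinase A on the spindle, had 7.68, 6.99 and 7.16 CPM in sham and 10.8, 5.55 and 7.42 CPM in SNI-NP (0.12 ± 0.26), with SNI-NP rat 1 above and SNI-NP rat 2 below the sham rats. *Hmmr*, which encodes a hyaluronan receptor that also binds the spindle, had 1.62, 2.20 and 2.21 CPM in sham and 2.01, 0.555 and 0.348 CPM in SNI-NP (-1.04 ± 0.61). In cytokinesis 2 of 3 were positive. *Racgap1*, a subunit of centralspindlin, had 9.79, 16.1 and 16.4 CPM in sham and 15.7, 15.0 and 12.4 CPM in SNI-NP (0.03 ± 0.22), with sham rat 1 the lowest. *Anln*, anillin, which ties actin and septins to the cleavage furrow, had 23.7, 9.65 and 14.4 CPM in sham and 11.4, 4.85 and 6.09 CPM in SNI-NP (-1.10 ± 0.42). The groups overlapped for *Anln*, whose counts were not whole, as were those of *Kif20a* and *Rrm2*, and which overlaps *Matcap2* in GRCr8.

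The usual marks of proliferation were lower in SNI-NP rats 2 and 3 than in any sham rat. *Mki67*, which codes for Ki-67, the coat of mitotic chromosomes, had 9.25, 10.9 and 9.72 CPM in sham and 19.2, 1.999 and 5.51 CPM in SNI-NP (-0.16 ± 0.68). *Top2a*, the topoisomerase that untangles sister chromatids, had 4.62, 7.9995 and 7.33 CPM in sham and 11.8, 3.11 and 4.12 CPM in SNI-NP (-0.07 ± 0.50). For both genes SNI-NP rat 1 was the highest library and SNI-NP rat 2 the lowest. Without SNI-NP rat 1 the log2 fold changes were -1.41 for *Mki67* and -0.88 for *Top2a*. Both turned positive without SNI-NP rat 2 (0.31 and 0.26), without SNI-NP rat 3 (0.03 and 0.11) and with offsets for length (0.03 and 0.11), and *Top2a* also without sham rat 2 (0.08). With offsets for length and a block for the replicate number, both stayed negative (-0.36 and -0.07).

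Genes of DNA replication were positive in 6 of 6 (median 0.51), and 4 of the 6 did not overlap between the groups, as for 10.3% of all genes. *Mcm2*, a subunit of the replicative helicase, had 18.2, 18.6 and 20.1 CPM in sham and 29.0, 24.99 and 23.5 CPM in SNI-NP (0.44 ± 0.13). *Rrm2*, the small subunit of ribonucleotide reductase, had 2.59, 2.89 and 2.40 CPM in sham and 6.30, 3.24 and 4.06 CPM in SNI-NP (0.79 ± 0.30). *Pcna* had 31.1, 34.0 and 30.4 CPM in sham and 39.0, 37.7 and 31.3 CPM in SNI-NP (0.18 ± 0.12). The helicase subunit and *Rrm2* were higher in each SNI-NP rat than in any sham rat, and SNI-NP rat 3 lay among the sham rats for *Pcna*. In GRCr8 *Rrm2* overlaps *Cys1*, one of 11 members that share bases with another protein-coding gene.

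Within the set the difference went with the length of the gene. Length here is what the count, the depth and the FPKM of a gene imply. The 15 shortest genes (764 to 2285 bases) had a median log2 fold change of 0.58, with 14 of 15 positive. For the 15 in the middle (2357 to 3045 bases) it was 0.50, again with 14 of 15 positive. For the 14 longest (3254 to 10087 bases) it was -0.12, with 6 positive and 8 negative. All tested genes were split at the same upper ends, 2285 and 3045 bases, with no lower or upper limit. Their medians were 0.03 for the short, 0.02 for the middle and -0.04 for the long class. Spearman's rho between length and log2 fold change was -0.52 over the 44 genes and -0.11 over all 14426, across genes that share the same 6 libraries.

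By library, the long genes stood low in SNI-NP rats 2 and 3 and not in SNI-NP rat 1. Set against their sham means, the 14 longest genes had a median log2 difference of 0.71 in SNI-NP rat 1, -1.56 in rat 2 and -0.59 in rat 3. The 15 shortest had 1.03, 0.24 and 0.44. In SNI-NP rat 2, 12 of the 14 longest were below their sham mean, and *Mcm2* and *Bub1b* were the exceptions. Of these, 9 lay lower by more than 1 on the log2 scale, a share not counted over all genes. All tested genes longer than 3045 bases had medians of 0.01, -0.08 and -0.01 in SNI-NP rats 1, 2 and 3. Spearman's rho between length and the difference in SNI-NP rat 2 was -0.56 over the 44 genes and -0.23 over all genes. It was -0.53 and -0.03 in SNI-NP rat 3, and -0.30 and -0.01 in SNI-NP rat 1. *Hmmr*, at 2285 bases, was low in SNI-NP rats 2 and 3 although it is short. With offsets that remove the trend of all genes with length, an alternative chosen after seeing the data, the median of the 44 was 0.50 and that of all genes 0.09. *Bub1b* was then called beside *Aurkb* and *Plk1*, its log2 fold change going from 0.93 to 1.08, and *Anln* was not, going from -1.10 to -0.97. The part of length in these differences was not tested further.

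**Figure D4:**
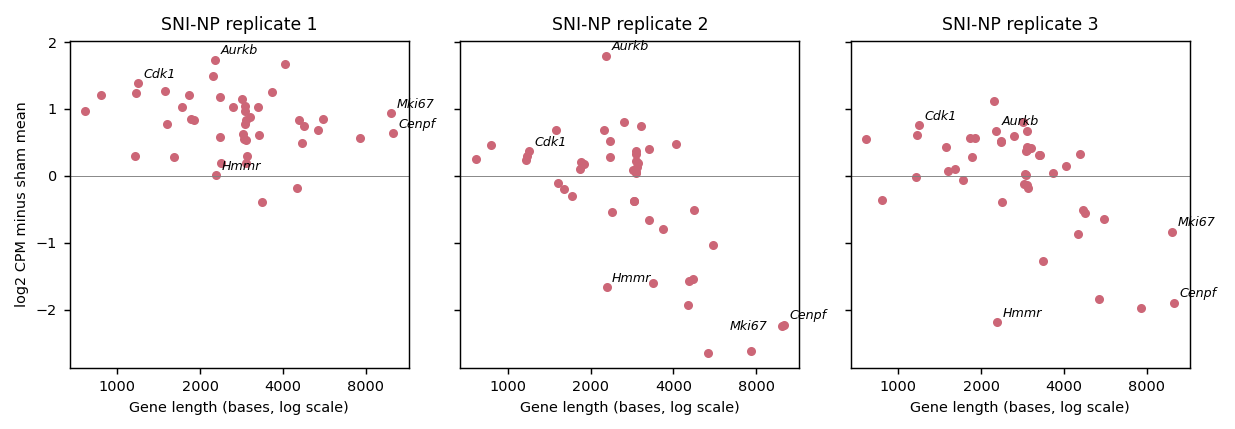
Log2 CPM minus the sham mean of the 44 division genes (vertical) against the length of the gene in bases on a log scale (horizontal), 1 panel per SNI-NP rat and 1 point per gene. Points fall toward the right in SNI-NP rats 2 and 3, with *Mki67* at -2.25 and *Cenpf* at -2.22 in rat 2, and stay mostly above 0 in SNI-NP rat 1.

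Genes with a profile like that of *Aurkb* were found outside the set. Among 13817 genes with a mean of at least 1 CPM, the highest Pearson correlations of log2 CPM with *Aurkb* over the 6 libraries included those of *Pifo* (0.995), *Ptms* (0.994), *Snapc4* (0.986) and *Fam183a* (0.985). The nearest member was *Mcm2*, with 0.913 at rank 164. Over the 39 members above that level the median was 0.50, and 29 were positive. With 6 libraries in 2 groups, a gene that differs between the groups correlates with *Aurkb* on that account alone, so the values are a description.

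Further genes of the cell cycle were taken from lists outside the 45. Of 36 tested rows of other mitosis genes, 23 were positive and 13 negative, with a median of 0.18. Called higher was 1 of them, *Kif18b*, a kinesin of the spindle, with 1.80, 2.48 and 2.503 CPM in sham and 6.84, 3.67 and 3.65 CPM in SNI-NP (1.06 ± 0.33), and 0 were called lower. *Cdc25b*, a phosphatase that activates CDK1, was 0.51 ± 0.17 higher and *Kif2a*, which takes microtubules apart, had -0.50 ± 0.16 (log2 fold changes). Without SNI-NP rat 1, 0 of this list were called higher, *Kif18b* being at 0.69. Of 36 genes of G1 and S phase, 27 were positive (median 0.20) and 2 were called higher, *Uhrf1* (1.09 ± 0.39) and *Mybl2* (1.44 ± 0.50), both named after their values were seen. *Mcm7*, a helicase subunit, had 20.95, 20.7 and 23.8 CPM in sham and 35.8, 32.4 and 31.6 CPM in SNI-NP (0.61 ± 0.12), with a clear gap between the groups. *Cdt1*, which loads the helicase, had 0.89 ± 0.25 and *E2f2*, an activating E2F factor, 0.96 ± 0.29. Of 21 brakes of the cell cycle, 9 were positive and 12 negative (median -0.10) and 0 were called in either direction. Among the brakes *Cdkn2c* had 0.34 ± 0.20 and *Ccng2* 0.21 ± 0.13.

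Erythroid, neutrophil granule and B cell markers were highest in the same library as the division genes, and they were not alone in this. Sums for Schwann cells, meninges and fibroblasts, endothelium and pericytes, ependyma and oligodendrocyte precursors were also highest in SNI-NP rat 1. By gene, 5 of 6 meninges and fibroblast genes and 4 of 6 Schwann cell genes peaked there. For endothelium, ependyma and oligodendrocyte precursors it was 1 of 5, 1 of 5 and 2 of 6. The erythroid, neutrophil and B cell lists do not separate precursors from mature cells. All 13 tested erythroid genes had positive log2 fold changes, 8 of them were called higher (0.742% of all genes), and their sum was 983 to 2382.5 CPM in sham and 2150 to 5152 CPM in SNI-NP. The sum was highest in SNI-NP rat 1, as were 12 of the 13 genes, and the median difference from the sham mean was 1.80, 0.66 and 0.69 in SNI-NP rats 1, 2 and 3. Most of the sum came from globin genes, with 2468 CPM of *Hba-a1*, 1100 CPM of *Hba-a2* and 1365 CPM of *Hbb* in SNI-NP rat 1. All 15 tested genes of neutrophil precursor granules were positive, 5 were called higher, and they summed to 69.9 to 216 CPM in sham and 171 to 352 CPM in SNI-NP. Here 14 of the 15 were highest in SNI-NP rat 1. Of 8 tested B cell and precursor genes 7 were positive and 3 called higher, with sums of 33.2 to 44.9 CPM in sham and 42.4 to 54.4 CPM in SNI-NP. Here 6 of the 8 were highest in SNI-NP rat 1. The largest part of the B cell sum was *Ebf1*, the negative gene (-0.21), which was highest in sham rat 3. It had 20.4, 23.6 and 25.6 CPM in sham and 23.9, 16.5 and 19.8 CPM in SNI-NP. Without SNI-NP rat 1, the calls were 2 of 13 erythroid, 3 of 15 neutrophil and 1 of 7 B cell genes (0.7% of all genes), with medians of 0.68, 0.70 and 0.54. *Klf1*, a factor of red cell precursors, had 2.22, 1.58 and 2.39 CPM in sham and 7.48, 2.55 and 3.19 CPM in SNI-NP, and *Mpo*, myeloperoxidase, had 6.54, 4.73 and 18.3 CPM in sham and 34.0, 18.0 and 32.9 CPM in SNI-NP. The filter on low counts kept 13 of 14 erythroid, 15 of 17 neutrophil and 8 of 13 B cell genes found. Among the B cell genes it removed, *Pax5* had 3, 5 and 4 counts in sham and 1, 3 and 1 in SNI-NP. *Dntt*, also removed, had 4, 1 and 5 counts in sham and 36, 8 and 6 in SNI-NP. The part of these 3 lists in the levels of the division genes was not tested.

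Markers of microglia and of oligodendrocyte precursors, resident cells that can divide, differed less. The 9 tested microglia genes summed to 323 to 379 CPM in sham and 327 to 361 CPM in SNI-NP, with a median log2 fold change of -0.03 and 0 called in either direction. The 6 genes of oligodendrocyte precursors summed to 565 to 695 CPM in sham and 591 to 716 CPM in SNI-NP (median -0.25, 0 called). In SNI-NP rat 1, where the division genes were highest, the medians of these lists were 0.06 and -0.00 from their sham means. The other lists had median log2 fold changes of -0.43 for T cells, -0.22 for macrophages, -0.31 for oligodendrocytes, -0.39 for astrocytes, -0.42 for neurons and 0.02 for dorsal root ganglion neurons. They were 0.27 for Schwann cells, 0.38 for ependyma, 0.37 for meninges and fibroblasts, 0.17 for endothelium and pericytes and 2.23 for skeletal muscle.

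**Figure D5:**
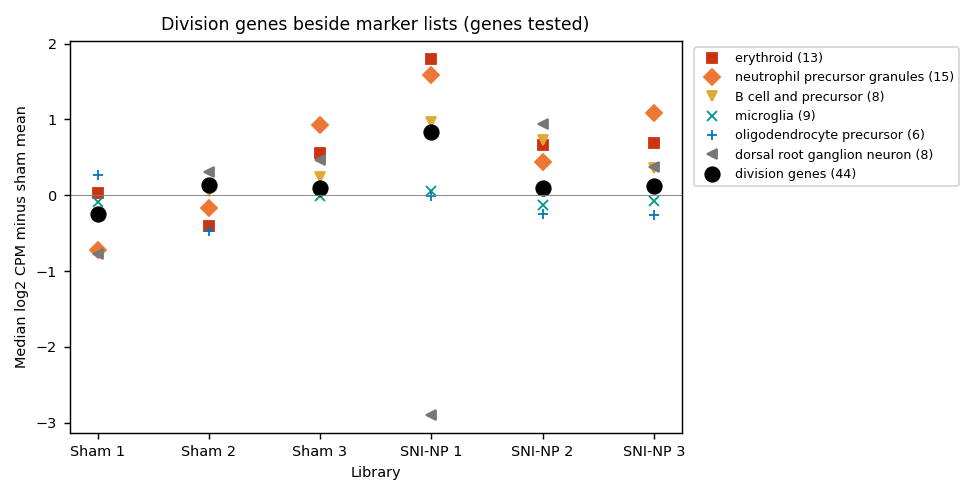
Median log2 CPM minus the sham mean of the division genes (black circles) and of 6 marker lists in each of the 6 libraries, with the number of tested genes in brackets. In SNI-NP rat 1 the erythroid, neutrophil and B cell lists and the division genes are all at their highest and the dorsal root ganglion neuron list is at its lowest.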

How the data were processed

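For 22050 genes the table deposited by the authors holds FPKM values and estimated counts that were not normalized; they mapped to a release called Rat6 and kept unique sequences. The submitters' processing notes list FastQC, STAR and HTSeq. Annotation release and strand are not given in the sources used here. Counts were rounded and fitted in R 4.3.3 with edgeR 4.0.16 (filterByExpr, TMM, quasi-likelihood test, condition as the single term), with Benjamini-Hochberg adjustment over 14426 genes. The biological coefficient of variation common to all genes was 0.223. A call is a fold change above 2 with an unadjusted p-value under 0.05. Differences from the sham mean add 2 counts before the log2. Replicates were taken as separate rats, which the labels do not state outright. The p-values set the difference between the groups against the variation among libraries within them, estimated with information shared across genes.

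The members and lists were chosen with earlier results of these data known. Named are *Aurkb*, *Mki67*, *Top2a*, *Cdk1*, the member of each role with the highest mean CPM and with the largest log2 fold change, 3 genes of smallest p-value per cell cycle list and the 5 genes most like *Aurkb*. Some genes that this rule takes are not reported here, and others were named after their values were seen. The tests were checked on simulated data. Alternatives were DESeq2 1.42.0, RLE factors, library totals, no filter, at least 10 counts in every library, a replicate block, fold changes of mean FPKM (0.01 added) and leaving out each library. Offsets on length (loess span 0.5), with and without the block, were chosen after seeing the data.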

Additional observations from a re-analysis of the deposited data

How the results depend on the processing

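The log2 fold change of *Aurkb* stayed positive under the 15 alternatives tried. The median of the 44 genes lay between 0.35 (library totals) and 0.50 (length offsets) when all 6 libraries were fitted, was 0.34 from mean FPKM and ran from 0.10 to 0.54 when 1 library was left out. Leaving out 1 library gave 1 to 4 members called higher, 85 to 167 genes called higher over the table, 0 to 2 other mitosis genes called higher, and 11 to 17 members without overlap (14.1% to 17.5% of all genes, since fewer libraries overlap less often). The 107 genes called higher became 164 with no filter on low counts and 65 with at least 10 counts in every library. Of the 29 named genes, 6 changed sign under some alternative (*Mki67*, *Top2a*, *Ccnb1*, *Cdca8*, *Tpx2* and *Racgap1*), and the cause was not tested. *Kif18b* had 0.31 from mean FPKM. Of all calls, 32.7% were higher in SNI-NP, against 48.1% with length offsets, 53.4% without SNI-NP rat 2 and 12.7% without SNI-NP rat 1.

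Deviations of same-numbered sham and SNI-NP rats had correlations of 0.21, -0.14 and 0.05, within the range of differently numbered rats (-0.24 to 0.22). These few values cannot show whether the numbers pair the rats, and the labels name no pairing. With the replicate block the median was 0.37, 2 members were called higher and 2 other mitosis genes, and 2 of the latter also with length offsets and the block. Counts were as low as 1 for *Kif20b* (1 to 27 per library) and 3 for *Cenpf* (3 to 35), with SE of 0.95 and 0.88.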
